A study of Rattus norvegicus with 6 samples.

Results

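The 9 genes described here encode 7 subunits of the skeletal and cardiac troponin complex (Tnnt1, Tnnt2, Tnnt3, Tnni1, Tnni2, Tnnc1 and Tnnc2) and 2 sarcomeric actins (Acta1 and Actc1). They were taken by gene symbol, ignoring case, from an RNA-seq table of 27217 genes, and each symbol matched 1 entry. The table compares 3 libraries of RCS cells, a cultured line derived from a rat chondrosarcoma, with 3 libraries of neonatal rat rib tissue. RCS cells are a single tumour-derived line, and a rib sample is tissue that can hold muscle, bone and other cells beside cartilage. No treatment or genotype is named for either group. The series calls the replicates biological without naming cultures or animals, so p-values measure the spread between these libraries only.

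Troponin sits on the actin thin filament of striated muscle and couples calcium to contraction. Troponin C binds calcium, troponin I holds the filament in its inhibited state, and troponin T anchors the complex to tropomyosin. Slow skeletal fibres, fast skeletal fibres and heart use different genes for these subunits, and developing skeletal muscle also uses genes that are named for the heart.

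Levels are normalized counts, meaning reads scaled by a factor common to all genes of that library. They were not divided by gene length, so the levels of different genes are not ranked against each other here. A normalized count of 1 or less is listed as 0. Summed over genes, depth was estimated at 5997570 to 8525000 reads per RCS library and 5319360 to 7492020 per rib library. Differences are RCS cells minus rib tissue on the log2(normalized count + 1) scale, tested with limma, and a call means a p under 0.05 after Benjamini-Hochberg adjustment. Of 16809 genes tested, 7324 (43.6%) were called lower and 5536 (32.9%) higher in RCS cells, 76.5% in all. Calls lower by over 1 log2 unit made up 33.1% and by over 4 log2 units 12.1% of genes tested, and 7481 (44.5%) had every RCS library under every rib library. Calls higher in RCS cells made up 43.0% of all calls, against 61.9% under quantile normalization and 53.3% under median scaling. The cartilage label held in both groups. The cartilage collagen gene Col2a1 had 10780 to 16801 normalized counts in RCS cells, against 55595 to 112920 in rib tissue. Of 5 cartilage markers, Col2a1 was called lower in RCS cells, Matn1 higher, and Acan, Sox9 and Hapln1 neither. The wider cartilage list of 8 genes had 2 higher and 2 lower, but 6 higher and 1 lower under quantile normalization. Rib tissue also carried muscle. Over the 5 skeletal muscle markers found (Ckm, Myh3, Neb, Des and Ryr1), summed levels were 93.2 to 127 normalized counts in RCS cells, against 15687 to 26359 in rib tissue.

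All 9 genes were high in rib tissue and lower in RCS cells, and 7 of them were near or at the lower limit of the table in RCS cells. The exceptions were Tnnt3, with 102 to 124 normalized counts in RCS cells, and Tnnc1, with 8.10 to 20.1. All 9 were called lower, against 43.6% of all genes tested, and all 9 by over 4 log2 units, against 12.1%. The 9 differences had a median of -7.74, against -0.15 over all genes tested. In all 9, every RCS library lay under every rib library, against 44.5% of genes tested. The 3 rib libraries were enough to pass each of the 9 through the filter on low values, and 6 of them also reached 1 normalized count in all 3 RCS libraries. The rib samples are bulk tissue, so their levels do not separate the number of muscle cells from the RNA per muscle cell.

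**Figure D1:**
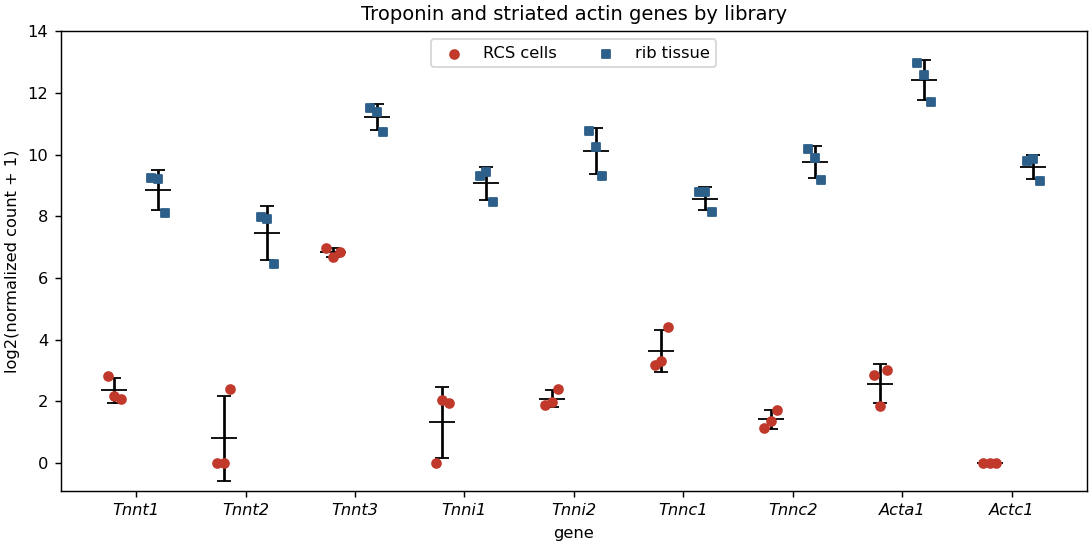
Levels of the 9 genes in each library, as log2(normalized count + 1) on the vertical axis. Red circles are the 3 RCS libraries and blue squares the 3 rib libraries, with horizontal lines at the mean and bars of 1 SD. Tnnt3 is the one gene with all RCS libraries above 6 on this scale, and Actc1 lies at 0 in all of them.

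Promoter sequence was available in RefSeq (assembly GRCr8) for 7 of the 9 genes, in 8 windows because Tnnt2 has 2 annotated starts. The 250 bases before the start are shown for Acta1, the skeletal actin gene, for the slow and cardiac troponin T genes, and for the fast troponin C gene. Capitals mark matches on either strand to the CArG box, the binding sequence of serum response factor, to the MCAT element CATTCC, the binding sequence of TEAD factors, to the E-box CANNTG, bound by factors such as MyoD, and to TATAAA, a core promoter element.
Acta1 (chr19:68784195-68784444, minus strand): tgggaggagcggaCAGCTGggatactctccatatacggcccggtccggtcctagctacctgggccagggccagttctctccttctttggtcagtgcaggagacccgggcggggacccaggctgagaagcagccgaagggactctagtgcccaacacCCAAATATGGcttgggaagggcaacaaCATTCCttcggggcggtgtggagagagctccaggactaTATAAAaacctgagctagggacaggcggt
Tnnt1 (chr1:78348785-78349034, plus strand): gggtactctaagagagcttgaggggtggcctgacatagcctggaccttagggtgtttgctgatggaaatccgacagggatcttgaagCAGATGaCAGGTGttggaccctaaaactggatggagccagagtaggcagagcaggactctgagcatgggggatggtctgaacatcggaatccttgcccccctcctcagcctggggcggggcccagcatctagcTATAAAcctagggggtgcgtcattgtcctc
Tnnt2 (chr13:49818873-49819122, plus strand): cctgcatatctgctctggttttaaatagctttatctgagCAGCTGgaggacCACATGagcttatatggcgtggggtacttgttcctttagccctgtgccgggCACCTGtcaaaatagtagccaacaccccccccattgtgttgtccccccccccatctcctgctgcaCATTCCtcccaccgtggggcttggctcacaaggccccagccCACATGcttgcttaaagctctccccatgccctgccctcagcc
Tnnc2 (chr3:173935340-173935589, minus strand): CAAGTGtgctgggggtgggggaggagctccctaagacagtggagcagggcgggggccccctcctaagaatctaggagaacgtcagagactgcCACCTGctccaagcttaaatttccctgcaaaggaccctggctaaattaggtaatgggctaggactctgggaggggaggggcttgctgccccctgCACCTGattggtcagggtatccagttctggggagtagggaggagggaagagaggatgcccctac

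The CArG box was found in 1 of the 8 windows, that of Acta1, where it spans bases -94 to -85 from the start, and in 1.5% of 33469 rat promoter windows of the same length. CATTCC was found in 2 of 8 windows (Acta1 and Tnnt2) and in 12.1% of all windows. An E-box CANNTG was found in 7 of 8 windows, but also in 65.5% of all windows, and the form CAGCTG, a subset of it, in 2 of 8 and 12% of all. TATAAA was found in 3 of 8 windows (Acta1, Tnnt1 and Tnni2) against 12.9% of all. It began at base -29 in Acta1 and -30 in Tnnt1, while the Tnni2 match was on the opposite strand at -72 to -67. The MEF2 motif was found in 0 of 8 windows against 2.96% of all. These are letter matches in a window, not sites shown to be bound.

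Troponin T is encoded by a slow, a cardiac and a fast gene, and all of these were lower in RCS cells. Tnnt1 (ENSRNOG00000028041), the slow skeletal form, had 5.99, 3.53 and 3.19 normalized counts in RCS cells replicates 1 to 3, against 607, 596 and 274 in rib tissue replicates 1 to 3. The lowest rib library lay far above the highest RCS library, and the RCS values correspond to about 11, 6.81 and 4.50 reads. The difference was -6.51 (SE 0.35, limma adjusted p 9.13e-07). Tnnt2 (ENSRNOG00000033734), the cardiac form, was listed at 0 in RCS cells replicates 1 and 2 and at 4.25 in replicate 3, against 253, 241 and 86.8 in rib tissue. It was the most variable of the 9 genes among the rib libraries, with replicate 3 well under the other two. Its difference was -6.66 (SE 0.70, limma adjusted p 4.34e-05), a size that rests on how zeros are treated and was -8.95 with a pseudocount of 0.1. Leaving out each library in turn kept the call. Without RCS cells replicate 3, the one RCS library listed above 0, the remaining RCS values are both 0, so that omission is no test of the call.

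Tnnt3 (ENSRNOG00000020332), the fast skeletal troponin T gene, was the one gene of the 9 with over 100 normalized counts in every RCS library. It had 124, 102 and 113 normalized counts in RCS cells replicates 1 to 3, about 228, 196 and 159.8 reads, against 2936, 2684 and 1704 in rib tissue. The RCS libraries were close together, at 6.83 ± 0.14 on the log2 scale (SD, n = 3), and rib tissue was at 11.22 ± 0.42 (SD, n = 3). Tnnt3 was 20.9-fold lower in RCS cells (difference -4.39, SE 0.19, limma adjusted p 3.29e-07), the smallest of the 9 differences.

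The other 2 subunits of the fast complex, Tnni2 and Tnnc2, had 1.22 to 4.27 normalized counts in RCS cells. The log2 ratio of Tnnt3 to Tnni2 was 5.51, 5.13 and 4.73 in RCS cells replicates 1 to 3, against 0.756, 1.14 and 1.43 in rib tissue. The log2 ratio of Tnnt3 to Tnnc2 was 6.67, 6.03 and 5.62 in RCS cells, against 1.33, 1.51 and 1.56 in rib tissue. Gene length cancels when 1 ratio is compared between libraries. These ratios were chosen after their values were seen and were not tested, and the RCS values rest on 2.23 to 6.02 reads of Tnni2 and Tnnc2.

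Tnnt3 and Tnni2 lie on the same chromosome of the GRCr8 assembly with 2 protein-coding genes, Lsp1 and Prr33, lying wholly between their annotated spans. Lsp1, which encodes a leukocyte actin-binding protein, had 980.5, 805 and 799 normalized counts in RCS cells and 404, 265 and 431 in rib tissue, 2.39-fold higher in RCS cells (difference 1.26, SE 0.18, limma adjusted p 0.000291). Mrpl23, a mitochondrial ribosomal protein gene on the other side of Tnnt3, had 88.1 to 97.3 in RCS cells, against 135 to 151 in rib tissue. Igf2, the growth factor gene next to it among protein-coding genes, had 12 to 13.8 in RCS cells, against 9192 to 12357 in rib tissue. The annotated span of Tnnt3 overlapped no other protein-coding gene in GRCr8. Neither the counting rule nor the use of strand is stated in the labels, and the part of neighbouring transcripts in the Tnnt3 counts of RCS cells was not tested.

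**Figure D2:**
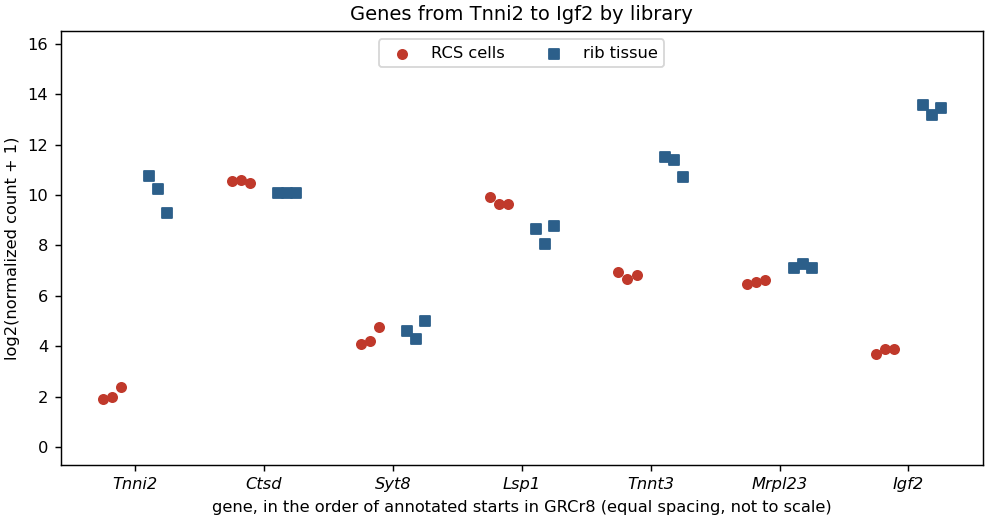
Levels of the protein-coding genes from Tnni2 to Igf2 that were found in the table, as log2(normalized count + 1). Genes are in the order of their annotated starts and equally spaced. Red circles are RCS libraries and blue squares rib libraries. Tnnt3 stands between Lsp1, higher in RCS cells, and Mrpl23, slightly lower, while Tnni2 and Igf2 are low in RCS cells and high in rib tissue.

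Troponin I, the inhibitory subunit, was near the lower limit in RCS cells for both skeletal forms. Tnni1 (ENSRNOG00000009073), the slow form, was listed at 0 in RCS cells replicate 1 and at 3.11 and 2.83 normalized counts in replicates 2 and 3, against 627, 694 and 352 in rib tissue. Those RCS values are about 6 and 4 reads. The difference was -7.74 (SE 0.54, limma adjusted p 4.10e-06). Tnni2 (ENSRNOG00000020276), the fast form, had 2.72, 2.91 and 4.27 in RCS cells, against 1738, 1218 and 631 in rib tissue. Rib tissue replicate 1 had 2.76 times the Tnni2 level of replicate 3, and all 3 rib libraries were far above RCS cells. The difference was -8.02 (SE 0.35, limma adjusted p 3.07e-07). The annotated span of Tnni2 in GRCr8 overlaps those of Ifitm10, Ctsd and Syt8, and whether reads were shared was not tested.

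Troponin C, the calcium sensor, has a gene shared by slow muscle and heart and a fast gene. Tnnc1 (ENSRNOG00000018943), the slow and cardiac form, had 8.10, 8.82 and 20.1 normalized counts in RCS cells, about 14.9, 17.0 and 28.4 reads, against 446, 439 and 281 in rib tissue. It was 30.8-fold lower in RCS cells (difference -4.95, SE 0.34, limma adjusted p 3.66e-06). The level in RCS cells replicate 3 was above that in the other 2, and without it the difference was -5.33. Its protein-coding neighbours in GRCr8 were Nisch and Sema3g. They stood at 889 to 1147 and 75.7 to 108 in RCS cells, against 1947 to 2505 and 55.7 to 101 in rib tissue. Whether their reads reached Tnnc1 was not tested. Tnnc2 (ENSRNOG00000015155), the fast form, had 1.22, 1.56 and 2.31 in RCS cells, against 1169, 942 and 577 in rib tissue. That is 2.23 to 3.26 reads per RCS library. The difference was -8.34 (SE 0.29, limma adjusted p 1.00e-07). The log2 ratio of Tnnc1 to Tnnc2 was 2.74, 2.50 and 3.12 in RCS cells, against -1.39, -1.10 and -1.04 in rib tissue, a description that rests on few reads on the RCS side.

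The sarcomeric actins had the 2 most negative differences of the 9 on the scale used here, and Actc1 was the more negative of the pair with a pseudocount of 0.1, under quantile normalization and without RCS cells replicate 2. Acta1 (ENSRNOG00000017786), skeletal alpha-actin, the main actin of mature skeletal muscle, had 6.22, 2.59 and 7.09 normalized counts in RCS cells, against 8079, 6137 and 3336 in rib tissue. Its RCS level corresponds to about 11.4, 5 and 10 reads. The difference was -9.85 (SE 0.38, limma adjusted p 1.72e-07), and 85 of the 16809 genes tested were lower by as much or more, Acta1 included. Actc1 (ENSRNOG00000008536), cardiac alpha-actin, which is also made by developing skeletal muscle, was listed at 0 in every RCS library, against 888, 919.5 and 568 in rib tissue. The difference was -9.60 (limma adjusted p 2.57e-08), and its size depends on the pseudocount, with -12.92 at a pseudocount of 0.1. With every RCS value listed at 0, that p-value takes in no measured spread between RCS libraries. The actins are near-identical paralogs. The treatment of reads with several matches is not stated in the labels, so the split of reads between Acta1, Actc1 and the other actins is uncertain.

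The remaining actins were mixed in direction. Of 4 smooth and non-muscle actin genes found, 1 was called higher (Actb), 2 lower (Actg2 and Actbl2) and 1 neither (Actg1). The shares over all genes tested were 32.9% called higher and 43.6% lower. The list had 2 higher and 1 lower under quantile normalization, 1 higher and 1 lower under cyclic loess, and Actg2 was called lower in all 14 alternatives. Actb, cytoplasmic beta-actin, had 3943, 4338 and 3025 normalized counts in RCS cells, against 3151, 2418 and 2198 in rib tissue (difference 0.54, limma adjusted p 0.0202). The groups overlapped, and the Actb call was lost without RCS cells replicate 1 or 2, without rib tissue replicate 2 or 3 (0.43 to 0.50 in these), and with no filter on low values. Actg1, cytoplasmic gamma-actin, had 129, 206 and 178 in RCS cells, against 159, 123 and 94.9 in rib tissue (0.45, limma adjusted p 0.105). It was called higher under quantile normalization and median scaling (0.74 in both) and without RCS cells replicate 1 (0.64) or rib tissue replicate 1 (0.63). Actg2, the enteric smooth muscle actin, had 1.56 to 7.09 in RCS cells, against 91.5 to 103 in rib tissue (-4.51, limma adjusted p 1.73e-05).

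**Figure D3:**
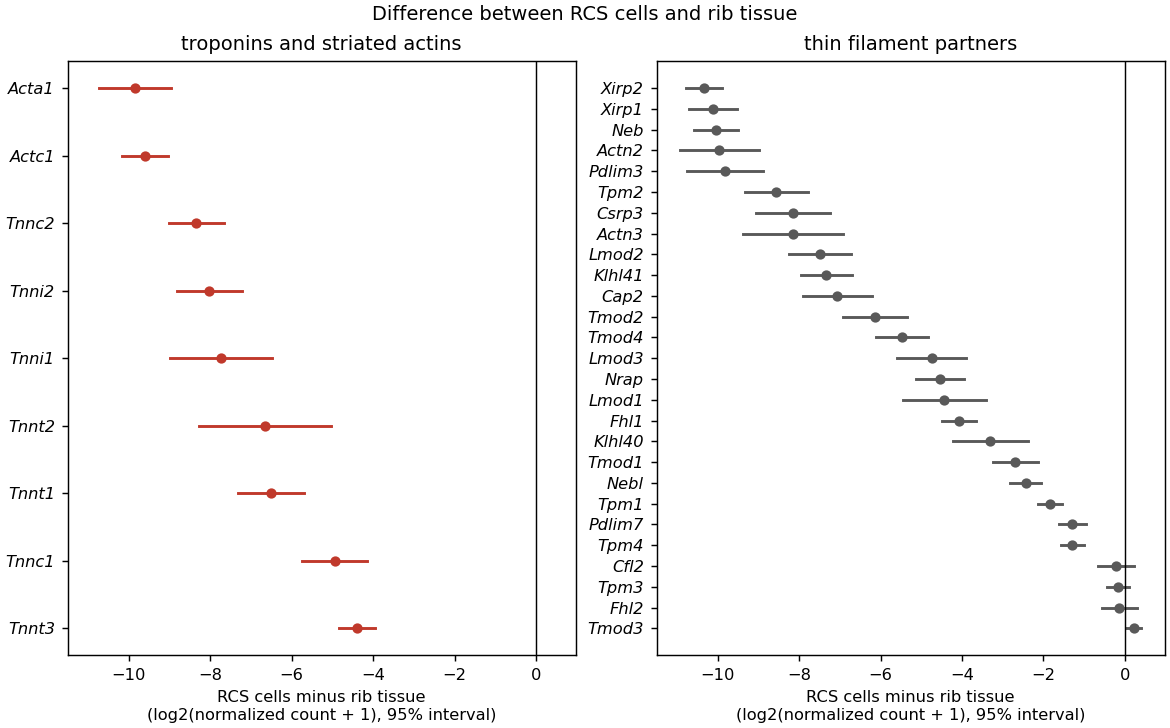
Differences between RCS cells and rib tissue on the log2(normalized count + 1) scale, with 95% intervals from limma. The left panel shows the 9 genes in order of their difference, between -9.85 for Acta1 and -4.39 for Tnnt3, and the right panel the 27 thin filament partners, of which 3 have an interval that includes 0.

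Among the rib libraries, replicate 3 had the lowest level of each of the 9 genes. It lay under the mean of replicates 1 and 2 by 1.58-fold for Tnnc1, 1.59-fold for Actc1, 1.65-fold for Tnnt3, 1.82-fold for Tnnc2, 1.87-fold for Tnni1, 2.11-fold for Acta1, 2.20-fold for Tnnt1, 2.31-fold for Tnni2 and 2.85-fold for Tnnt2. Over all genes tested, 38.3% had their lowest rib level in replicate 3. Marker levels differed among these libraries too. The mean log2 level was 12.2, 11.9 and 11.3 in rib tissue replicates 1, 2 and 3 for skeletal muscle markers, 8.84, 8.19 and 6.98 for the 2 erythroid markers found, 8.56, 8.56 and 7.13 for adipocyte markers, and 12.7, 12.3 and 12.9 for cartilage markers. In the same order, osteoblast markers stood at 10.45, 9.84 and 8.36, myeloid markers at 8.44, 8.48 and 7.59, and endothelial markers at 9.22, 9.55 and 8.92. Smooth muscle markers stood at 8.34, 8.50 and 8.12, and heart muscle markers at 2.80, 3.44 and 2.85. The part of tissue makeup in the spread of the 9 genes was not tested. Without rib tissue replicate 3 their differences ran from -10.21 for Acta1 to -4.63 for Tnnt3, and all 9 stayed called.

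The ratio of slow or cardiac to fast isoforms is given for each rib library. The log2 ratio of slow Tnnt1 to fast Tnnt3 was -2.27, -2.17 and -2.64 in rib tissue replicates 1 to 3, and that of cardiac Tnnt2 to Tnnt3 was -3.54, -3.48 and -4.30. For troponin T, replicate 3 had the lowest ratios, and the 3 libraries spanned 1.38-fold and 1.76-fold. The log2 ratio of slow Tnni1 to fast Tnni2 was -1.47, -0.811 and -0.84, with replicate 1 the lowest. The ratio of Tnnc1 to Tnnc2, at -1.39, -1.10 and -1.04, and that of Actc1 to Acta1, at -3.19, -2.74 and -2.55, also had replicate 1 as the lowest, within spreads of 1.28-fold and 1.55-fold. Counting error on these ratios, from the estimated reads, was 0.0444 to 0.159 log2 units (SE). It does not cover differences between the tissue samples themselves. Only changes of a ratio between libraries are read here, since the ratios carry the unknown length of each transcript. With 3 rib libraries and no labels that divide them, no test was made.

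**Figure D4:**
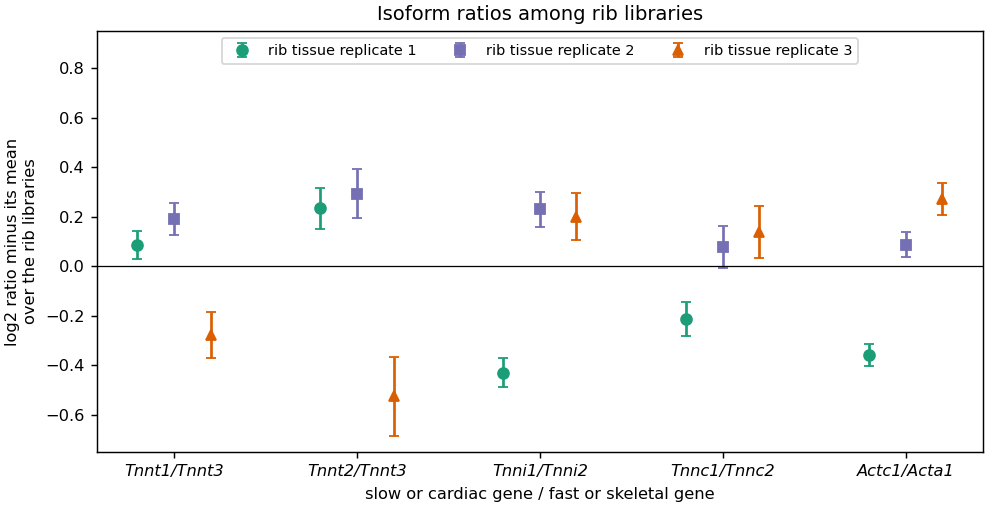
Log2 ratio of the slow or cardiac gene to the fast or skeletal gene in each rib library, minus the mean of that ratio over the 3 rib libraries. Bars are 1 SE of counting error from the estimated reads. Replicate 3 is lowest for the 2 troponin T ratios, and replicate 1 is lowest for the troponin I, troponin C and actin ratios.

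Most partners of troponin and actin in the thin filament and Z-disc were also lower in RCS cells. Of 28 genes on that list, 27 were in the table and tested, and 23 were lower in RCS cells, 1 higher and 3 neither, with a median difference of -4.75. Over all genes tested, 43.6% were called lower and 32.9% higher, with a median of -0.15. Neb, nebulin, the ruler of the thin filament, had 3.96, 6.78 and 7.45 normalized counts in RCS cells, against 7884, 8629 and 5581 in rib tissue (-10.04, limma adjusted p 1.76e-08). Xirp2, an actin-binding repeat protein of striated muscle, had 1.04 to 1.63 in RCS cells, against 2401 to 3733 in rib tissue (-10.34, limma adjusted p 1.02e-08). Listed at 0 in every RCS library were 4 genes of the list (Tmod2, Lmod2, Xirp1 and Csrp3).

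The tropomyosins, which lie along actin and hold troponin T, split among themselves. Tpm2 had 1.63, 3.11 and 4.96 normalized counts in RCS cells, against 1925, 1708 and 1044 in rib tissue. That was like the skeletal troponins near the lower limit in RCS cells, but unlike Tnnt3. Tpm1, at 554 to 600 in RCS cells, against 1684 to 2407 in rib tissue, was 3.56-fold lower, and Tpm4, at 401 to 445 in RCS cells, against 885 to 1246 in rib tissue, was 2.44-fold lower. Tpm3 did not pass the test, at 823, 803 and 739 in RCS cells and 972, 966 and 734 in rib tissue (-0.17, 95% interval -0.44 to 0.11, limma adjusted p 0.234). Without rib tissue replicate 3 it was called lower (-0.30). Fhl2, a LIM-domain protein gene, also missed the threshold, at 89.8 to 114 in RCS cells, against 86.8 to 135 in rib tissue (-0.14, interval -0.56 to 0.28), as did the cofilin gene Cfl2 (-0.21), which was called lower without rib tissue replicate 3 (-0.46). Tmod3, the tropomodulin of many non-muscle cells, was the one gene called higher (0.21, limma adjusted p 0.0441), a call lost in 7 of 14 alternatives, among them the omission of any 1 library other than rib tissue replicate 2.

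Genes of fast, slow and developing fibres outside the 9 were also counted, against 43.6% of all genes tested called lower. Of 11 fast fibre genes tested, 11 were lower in RCS cells, with a median difference of -8.14, and 3 were listed at 0 in every RCS library. Under quantile normalization 10 of them were called lower. The fast myosin gene Myh2 was listed at 0 in 2 RCS libraries and at 1.65 in the other, against 5043, 4126 and 3104 in rib tissue (-11.50, limma adjusted p 8.38e-08). The light chain gene Myl1 had 0 to 3.54 in RCS cells, against 1821 to 3413 in rib tissue. Of 8 slow fibre genes, 6 were lower and 2 neither (Atp2a2 and Tpm3), with a median of -5.93. Without rib tissue replicate 3 all 8 were called lower, and under quantile normalization Atp2a2 was called higher. The slow myosin-binding protein gene Mybpc1 had 3.48 to 7.37 in RCS cells, against 2721 to 4032 in rib tissue, while Atp2a2, a calcium pump made in most cells, had 1738 to 2107 in RCS cells, against 1969 to 2546 in rib tissue (-0.27, limma adjusted p 0.0745). Of 8 genes of developing fibres, 8 were lower (median -6.48), with 5 listed at 0 in every RCS library (Chrna1, Chrng, Myog, Myod1 and Mymk). The embryonic myosin gene Myh3 stood at 1.04 to 3.78 in RCS cells, against 5002 to 7939 in rib tissue, and the perinatal gene Myh8 at 2.08 to 3.54 in RCS cells, against 4444 to 8209.7 in rib tissue. The genes at 0 in every RCS library passed the filter through rib tissue alone.

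Heart markers are given beside Tnnt2 and Actc1, since both are named for the heart. Of 6 heart muscle markers, Nkx2-5 was listed at 0 in all 6 libraries, and Nppa, the atrial peptide gene, was at 0 in all but rib tissue replicate 2, where it stood at 1.03. Myl7, the atrial light chain gene, was at most 1.25 in RCS cells and at most 2 in rib tissue. Mybpc3, the cardiac myosin-binding protein gene, was at 0 in RCS cells and at 3.46, 7.96 and 5.70 in rib tissue. Tnni3 (ENSRNOG00000018250), the cardiac troponin I gene, had 3.89, 1.73 and 4.39 in RCS cells, against 32.8, 54.4 and 13.3 in rib tissue (-2.85, SE 0.52, limma adjusted p 0.00109). That call was lost under quantile normalization (-0.59) and cyclic loess (-1.18). Myh6, a cardiac myosin gene, had 66.9 to 76.2 in RCS cells, against 492 to 799 in rib tissue. Its near-identical neighbour Myh7 had no value above 0 in RCS cells, against 1222 to 2437 in rib tissue. The split of reads between Myh6 and Myh7 was not tested, which makes the Myh6 level uncertain, in rib tissue above all. Myh6 made up most of the summed level of the 6 markers, 71.3 to 81.4 in RCS cells, against 513 to 863 in rib tissue. Myl4, the atrial and embryonic light chain gene, had 22.7 to 23.8 in RCS cells, against 118 to 285 in rib tissue.

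The genes whose profile over the 6 libraries was closest to that of Acta1 were not all muscle genes. Likeness was measured as the Euclidean distance between log2 profiles centred per gene, among 9390 genes with a symbol and a rib mean of at least 100 normalized counts. Among the nearest were Col3a1 (distance 0.677), a fibroblast collagen gene, Myom3 (0.826), a gene of the sarcomere, Col1a1 (0.832), the bone and skin collagen gene, and Col4a1 (0.955), of basement membranes. Nearest to Tnnt2 were Alas2 (0.696), the erythroid heme synthesis gene, Mapk12 (0.781), a kinase gene abundant in skeletal muscle, and Tead2 (0.942). Each of these 3 shared with Tnnt2 a value of 0 in RCS cells replicates 1 and 2 and a low value in replicate 3. The distances are a description over 6 libraries of 2 groups.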

How the data were processed

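RNA-seq values for 3 RCS and 3 rib libraries came from 1 table deposited by the authors, in log2. Per the submitters' processing notes, CASAVA 1.8, DESeq and the build rn5 were used, with no role given. No source used here gives the aligner, the counting rule or the use of strand. Although the table is named for a per-length unit, antilogs of low values recurred at multiples of a step that many genes of a library share, so each value was read as log2 of a scaled read count. Between 38.7% and 55.6% of low values lay within 0.01 of a whole read, so no count model was used. Reads were estimated by dividing by the step. The number of identical library pairs was 0.

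The filter kept 16809 genes that reached 1 normalized count in 3 or more of the 6 libraries. The test was limma 3.58.1 (R 4.3.3, intensity trend, two-sided, Benjamini-Hochberg adjustment over all genes kept) on log2 values after adding 1, checked on simulated data. Fold changes on this scale understate changes of low genes and are given only where both groups average at least 10 normalized counts. Division by coding length had been planned for isoform shares. Lengths were not used here, so only changes of a ratio between libraries are read. The gene lists held 105 names, of which 95 were found by symbol, 5 by Entrez identifier and 5 not at all. RefSeq (GRCr8) served for names, gene order and promoters.

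By rule, the text names the 9 genes, Tnni3, the top 2 of each list by rib mean, the 2 thin filament partners with the smallest difference, and the nearest profiles, of which 1 is not reported here. Other names were chosen after their values were seen. The members and lists were chosen with earlier results of these data known. Alternatives were 3 scalings, a pseudocount of 0.1, 2 other filters, array weights, the replicate number as a block, and leaving out each library.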

Additional observations from a re-analysis of the deposited data

How the results depend on the processing

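All 9 troponin and actin genes stayed lower in RCS cells and past the threshold in each of 14 alternatives. Their differences ran from -12.92 (Actc1, pseudocount of 0.1) to -3.97 (Tnnt3, quantile normalization), with limma adjusted p (Benjamini-Hochberg) of 6.20e-10 to 0.00283. Actc1 was listed at 0 in every RCS library, so leaving out an RCS library is no test of its call. The same holds for Tnnt2 without RCS cells replicate 3. The median gene stood at -0.15 as deposited, 0.32 under quantile normalization and 0.13 under median scaling. Replicate numbers did not pair the libraries (correlations of deviations 0.0638, -0.0764 and 0.047, and not every library was closest to its own number). With the replicate block, 5536 genes were higher and 7340 lower, Atp2a2 was called lower (-0.27) and Tmod3 was not called. Atp2a2 was also called lower under array weights (-0.31) and without rib tissue replicate 3 (-0.37). Among other named genes, the direction turned under quantile normalization for Atp2a2 (0.31, called higher), Col9a1 (1.57, called higher) and Fhl2 (0.33), and under median scaling for Atp2a2 (0.028), Col9a1 (0.10), Fhl2 (0.15), Tpm3 (0.13) and Cfl2 (0.079). Col9a1 also turned under cyclic loess (0.68, called higher) and array weights (0.0053). With each library left out in turn, Col9a1 ran from -0.36 to 0.023 (without rib tissue replicate 3), Fhl2 from -0.30 to 0.017 (without rib tissue replicate 2) and Sema3g from -0.065 (without rib tissue replicate 3) to 0.36. The cause was not tested. Thin filament partners called higher numbered 0 or 1. Low RCS values rest on a few reads, so their sizes are limited by depth. The planned edgeR test applied to counts only and was not run, nor was length division.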

Other observations

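Of the 14 genes on the cardiac list, 10 were tested, and 7 were lower in RCS cells, 1 neither and 2 higher. Among all genes tested, 43.6% were called lower and 32.9% higher. The cardiac list had 4 higher and 4 lower under quantile normalization and 3 higher and 4 lower under cyclic loess. With the stricter filter on low values, 3 were lower. The 2 genes of the list called higher, Gata4 and Hand2, were transcription factors of heart and other mesoderm rather than sarcomere genes. Gata4 had 139, 145 and 133 normalized counts in RCS cells, against 4.55, 4.10 and 2.50 in rib tissue (difference 4.92, SE 0.24, limma adjusted p 6.15e-07). Hand2 had 30.3, 29.9 and 36.9 in RCS cells and was listed at 0 in every rib library. Both stayed called in each of 14 alternatives, and both were named after their values were seen. Hand2 passed the filter through RCS cells alone. With every rib value of Hand2 listed at 0, leaving out a rib library is no test of its call. The size of its difference ran from 4.96 to 8.34 over the alternatives.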
